A study of Homo sapiens with 9 samples.

Results

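The genes described here encode WNT ligands, their receptors, the secreted antagonists and the intracellular effectors of the pathway. They were chosen by symbol from a table of 24069 rows of expression values, and 57 rows matched. The symbols were those of the WNT, FZD, DKK and SFRP families and 18 single genes: LRP5, LRP6, AXIN1, AXIN2, LGR4, LGR5, RNF43, ZNRF3, TCF7, TCF7L1, TCF7L2, LEF1, WIF1, NKD1, NKD2, PORCN, APC and GSK3B. The 57 rows hold 56 symbols, since FZD4 appears alone and in a combined row. In 3 combined rows (APC,SRP19 and EBP,PORCN and FZD4,OR7E2P) the authors' value covers a neighbouring gene as well and cannot be split.

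RNA was sequenced from 3 libraries each of PR2, PR1 and parental LC-2/ad cells. LC-2/ad is an established human lung adenocarcinoma line with a CCDC6-RET fusion. PR2 and PR1 are derivatives of it that resist ponatinib, an inhibitor of several kinases including RET, and were kept in 200 nM ponatinib per the labels, which state no drug for the parental cells. Each derivative is 1 line, so resistance, exposure to the drug and the history of the line cannot be told apart. The libraries carry the letters A, B and C, and nothing states that a letter stands for a culture of its own. The p-values therefore reflect library-to-library spread alone, which may be technical. All 6 epithelial markers examined (EPCAM, CDH1, KRT7, KRT8, KRT18 and KRT19) were at 1 FPKM or more in at least 3 libraries, as were all 4 lung adenocarcinoma markers (NKX2-1, NAPSA, SFTPB and SLC34A2), though not in every group. The summed FPKM of the 4 lung markers was 74.4 to 115 in PR2, 262 to 409 in PR1 and 252 to 367 in parental cells, and the 4 did not move together. SFTPB was near 0 in PR2 (0.0204 to 0.0352 FPKM), at 3.46 to 6.01 in PR1 and at 40.6 to 144 in parental cells, and SLC34A2 was at 5.70 to 15.3 in PR2, 113 to 243 in PR1 and 128 to 148 in parental cells. NKX2-1 was at 64.3 to 82.5 FPKM in PR2, 105 to 163 in PR1 and 51.9 to 77.9 in parental cells, and NAPSA at 4.42 to 17.5, 41.3 to 52.8 and 9.10 to 16.1 in the same order. The 7 fibroblast markers summed to 9.48 to 10.8 FPKM in PR2, 5.98 to 8.43 in PR1 and 3.67 to 8.05 in parental cells. Among them COL1A1 (up to 10.04 FPKM) alone reached 1 FPKM or more in at least 3 libraries. Of 6 blood cell markers CD14 alone did so, and of 3 endothelial and 4 neuroendocrine markers none did, with 1 neuroendocrine marker listed at 0 throughout. The part of these markers in the results below was not tested.

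WNT proteins are lipid-modified by the acyltransferase PORCN, secreted, and bound by Frizzled (FZD) receptors together with the co-receptors LRP5 and LRP6. Binding stops a complex of AXIN, APC and the kinase GSK3B from marking beta-catenin for destruction, and beta-catenin then drives transcription with the DNA-binding proteins TCF7, TCF7L1, TCF7L2 and LEF1. DKK, SFRP and WIF1 proteins act outside the cell as antagonists, while the ligases RNF43 and ZNRF3 remove FZD receptors from the cell surface unless R-spondins engage LGR4 or LGR5. In lung epithelium the pathway is known for its part in airway branching and in alveolar progenitor cells.

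Values are FPKM, which scale a row's fragments by transcript length and library size, a unit inferred from the tools named by the submitters. Summed FPKM ran from 571570 to 686460 per library, and relative depth, read from the smallest steps between low values with parental A set to 1, went down to 0.761 with overlapping ranges in the 3 groups. FPKM itself keeps no absolute depth. A row was tested where at least 3 of the 9 libraries reached 1 FPKM, which left 12011 rows, 28 of them among the 57 described here. Some genes that most cells express, such as TUBB and BRD2, are at 0 throughout the table, so a gene at 0 is said to be listed at 0. Groups were compared with limma on log2(FPKM + 1), and a row passed at a Benjamini-Hochberg adjusted p under 0.05 over all tested rows. Fold changes on this scale are understated for low values. In bulk RNA, fewer cells expressing a gene and less RNA per cell cannot be told apart.

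PR2 carried more transcript of several WNT ligands, of FZD2, of the antagonists DKK1 and DKK3 and of TCF7 than parental cells. PR1 carried more DKK1, LGR4, FZD5 and WNT7A and less WNT10A, RNF43 and APC,SRP19 than parental cells. Of these calls in PR1, those of LGR4 and WNT10A alone held under every alternative run. Of the 28 tested rows, 10 rose and 1 fell in PR2 against parental cells (35.7% and 3.57% of them), where 13.6% of all tested rows rose and 9.83% fell. In PR1 against parental cells 4 rose and 3 fell (14.3% and 10.7%), where 7.56% of all tested rows rose and 7.98% fell. Between the derivatives 7 rows were higher and 7 lower in PR2 than in PR1 (25.0% each), where 11.0% of all tested rows were higher and 8.92% lower. TCF7 and WNT7A (rises) and FZD8 (the fall in PR2) passed the filter only through groups in which they were high, so these shares describe the rows that passed it and not all 57. The median log2 fold change of the 28 rows was 0.22, 0.27 and 0.14 in these 3 comparisons, in that order, against 0.030, 0.047 and 0.0038 over all tested rows. The groups did not overlap for 13 of the 28 rows in PR2 against parental cells, 12 in PR1 against parental cells and 17 in PR2 against PR1, that is 46.4%, 42.9% and 60.7% of them, where 39.9%, 31.6% and 38.7% of all tested rows did not overlap. The 2 comparisons with parental cells share the parental libraries.

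**Figure D1:**
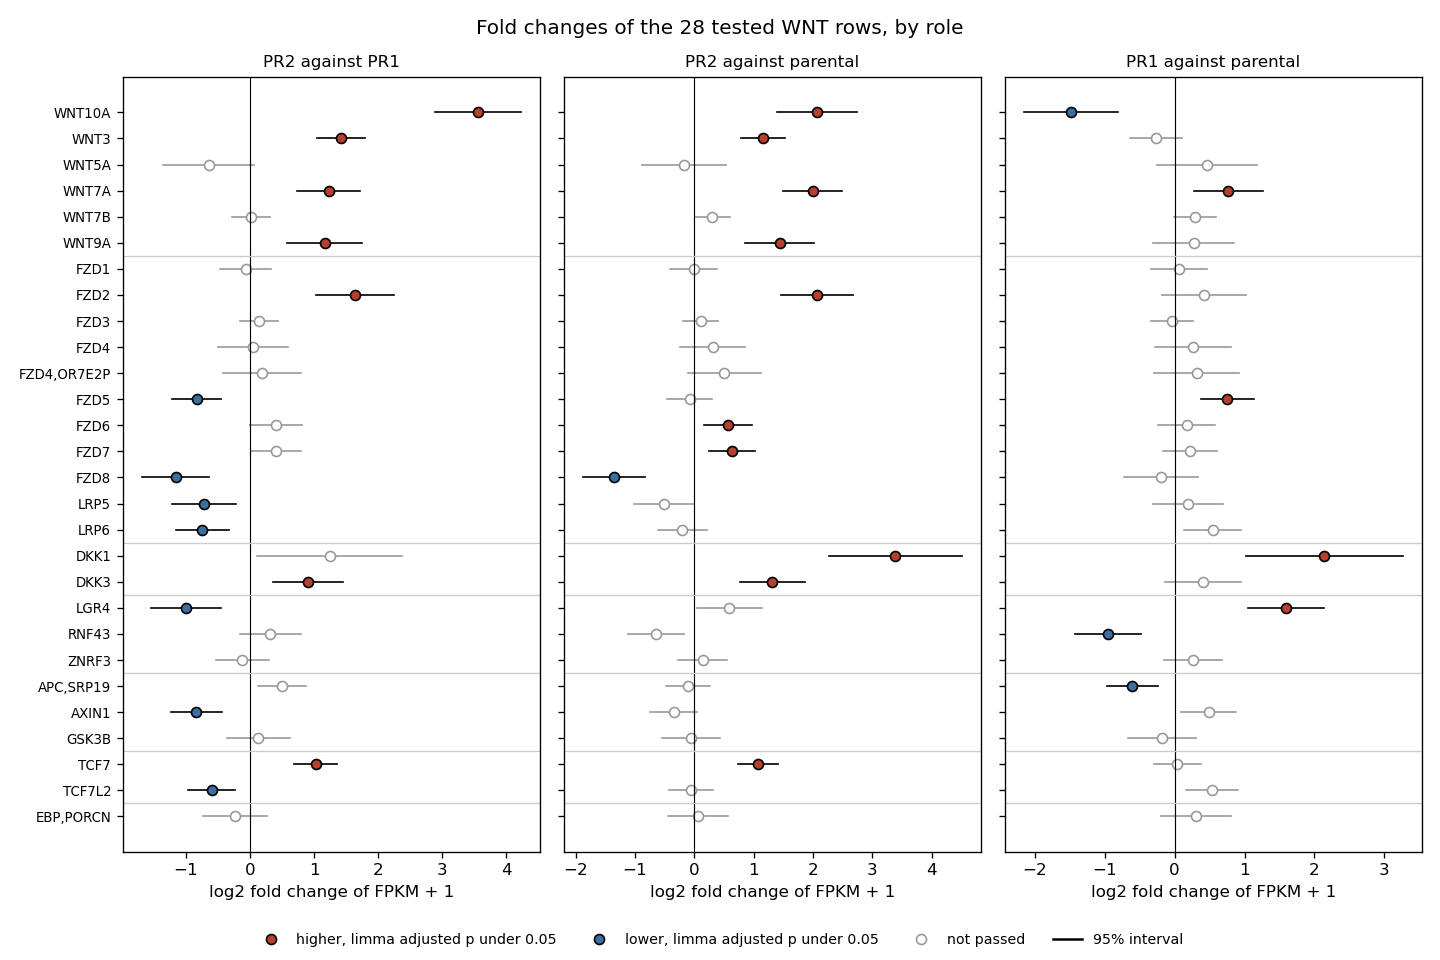
Log2 fold changes of FPKM + 1 for the 28 tested rows, grouped by role, in PR2 against PR1, PR2 against parental and PR1 against parental cells; points are limma estimates, bars 95% intervals, and filled points passed an adjusted p of 0.05. WNT10A stands at 3.56 in PR2 against PR1, 2.07 in PR2 against parental cells and −1.49 in PR1 against parental cells, while DKK1 has the largest value in each comparison with parental cells (3.38 in PR2 and 2.14 in PR1).

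Among the 19 ligand rows, 6 were tested: WNT7B, WNT10A, WNT3, WNT7A, WNT9A and WNT5A. WNT7B, a ligand of the developing airway epithelium, had the highest mean among the ligands in PR2, PR1 and parental cells. Its values were 32.9, 38.2 and 37.6 FPKM in PR2 A, B and C, 39.4, 34.6 and 34.0 in PR1, and 28.7, 28.7 and 30.1 in parental cells. The derivatives did not overlap with parental cells, yet no comparison passed, with log2 differences of 0.30 in PR2 and 0.29 in PR1 against parental cells (limma adjusted p = 0.13 and 0.18). Between PR2 and PR1 the difference was 0.0091, with a 95% interval from −0.29 to 0.31.

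WNT10A, a ligand known for skin appendages and teeth, was the ligand that moved in opposite directions in the derivatives. It stood at 33.4, 42.6 and 27.5 FPKM in PR2 A, B and C, at 2.53, 2.92 and 0.895 in PR1, and at 10.6, 6.19 and 5.93 in parental cells. The 3 groups did not overlap, with PR1 lowest and PR2 highest. WNT10A rose in PR2 (log2 fold change 2.07 ± 0.30 SE, limma adjusted p = 0.00094) and fell in PR1 (−1.49 ± 0.30, limma adjusted p = 0.0091). The mean FPKM was 16.3 times as high in PR2 as in PR1, and the log2 difference of 3.56 ± 0.30 passed as well (limma adjusted p = 6.0e-05). All 3 calls held under every alternative run.

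WNT7A, a ligand best known from limb and reproductive tract development, rose in both derivatives. It stood at 4.19, 7.32 and 6.02 FPKM in PR2, at 2.87, 1.44 and 1.5 in PR1, and at 0.825, 0.522 and 0.730 in parental cells. No parental library reached 1 FPKM, so the row entered the test through the derivatives alone. The log2 fold change was 1.99 ± 0.22 in PR2 and 0.77 ± 0.22 in PR1 (limma adjusted p = 0.00020 and 0.043), and PR2 exceeded PR1 by 1.23 ± 0.22 (limma adjusted p = 0.0043). The call in PR1 was lost without any single library of the 6 compared (limma adjusted p of 0.051 to 0.14).

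The 5′ regions of WNT10A and WNT7A are shown because these 2 ligands passed in both derivatives against parental cells. Each runs from 250 bases before to 50 bases after the RefSeq transcript start, 5′ to 3′ on the gene's strand, in build GRCh38.p14 and not the build of the expression table. The WNT10A window lies at chr2:218880602-218880901 on the plus strand and the WNT7A window at chr3:13880022-13880321 on the minus strand. Capitals would mark CTTTGAT or CTTTGAA, cores of sites bound by TCF and LEF proteins, or TGANTCA, a site bound by AP-1, on either strand, and neither window holds these letters.
WNT10A: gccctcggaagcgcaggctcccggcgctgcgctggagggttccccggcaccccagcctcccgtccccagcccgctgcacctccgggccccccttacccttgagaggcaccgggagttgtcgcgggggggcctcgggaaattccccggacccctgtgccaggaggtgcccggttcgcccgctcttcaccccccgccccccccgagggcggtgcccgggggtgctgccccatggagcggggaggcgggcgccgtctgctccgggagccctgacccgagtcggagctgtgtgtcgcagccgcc
WNT7A: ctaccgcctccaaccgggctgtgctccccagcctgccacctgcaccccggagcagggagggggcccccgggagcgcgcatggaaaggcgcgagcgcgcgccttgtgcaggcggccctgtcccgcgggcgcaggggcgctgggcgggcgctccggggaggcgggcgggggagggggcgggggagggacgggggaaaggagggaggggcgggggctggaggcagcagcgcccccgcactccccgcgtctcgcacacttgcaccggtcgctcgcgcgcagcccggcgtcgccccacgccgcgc

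WNT3 and WNT9A rose in PR2, while in PR1 against parental cells their log2 differences of −0.26 and 0.27 did not pass (limma adjusted p = 0.34 and 0.54). WNT3, a ligand of the beta-catenin branch known from the axis of the early embryo, was at 7.01, 9.08 and 10.1 FPKM in PR2, at 2.59, 3.10 and 2.19 in PR1, and at 3.20, 3.0 and 3.84 in parental cells. All PR2 libraries lay above all others, while PR1 and parental libraries overlapped. Its log2 fold change was 1.15 ± 0.17 in PR2 against parental cells and 1.42 ± 0.17 in PR2 against PR1 (limma adjusted p = 0.00093 and 0.00041). WNT9A was at 3.52, 3.50 and 3.62 FPKM in PR2, at 1.51, 0.397 and 1.38 in PR1, and at 1.40, 0.460 and 0.351 in parental cells. PR2 was tightly grouped and above the other libraries, among which PR1 B and parental B and C were low. The log2 fold change of WNT9A was 1.44 ± 0.26 in PR2 against parental cells and 1.16 ± 0.26 in PR2 against PR1 (limma adjusted p = 0.0033 and 0.012).

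WNT5A, the main ligand of the branch that does not use beta-catenin, passed in no comparison. It stood at 0.536, 1.87 and 2.48 FPKM in PR2, at 1.82, 3.18 and 3.94 in PR1, and at 2.49, 1.94 and 1.16 in parental cells, and the groups overlapped. Without the A libraries of all 3 groups it passed in PR1 against parental cells (log2 difference 0.85, limma adjusted p = 0.028, against 0.46 with all libraries).

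The summed FPKM of the 19 ligand rows was 82.8 to 105 in PR2, 44.5 to 51.9 in PR1 and 41.9 to 48.2 in parental cells. WNT7B held 36.4% to 42.6% of that sum in PR2, 74.4% to 76.6% in PR1 and 59.6% to 69.9% in parental cells. WNT10A held 31.1% to 40.6% in PR2, 2.01% to 6.28% in PR1 and 13.8% to 21.9% in parental cells, so PR2 had a pair of ligands at similar level where PR1 had 1 dominant ligand. These sums were not tested.

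**Figure D2:**
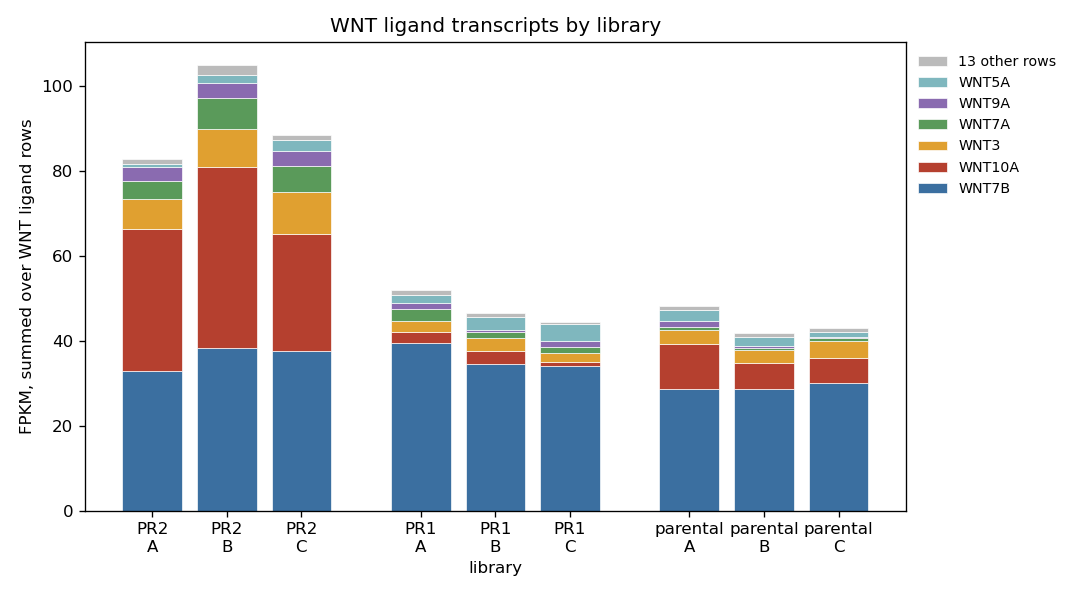
Stacked FPKM of the WNT ligand rows in each library (PR2, PR1 and parental, A to C), with the 6 tested ligands in colour and the 13 other rows together in grey. WNT7B is of similar height in all 9 libraries (28.7 to 39.4 FPKM), whereas WNT10A is a wide band in PR2 (27.5 to 42.6 FPKM) and a thin one in PR1 (0.895 to 2.92 FPKM).

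The other 13 ligand rows were low. WNT6 reached 1.31 FPKM in PR2 B, beside 0.229 and 0.205 in PR2 A and C and 0.141 to 0.277 in parental cells, and was listed at 0 in all 3 PR1 libraries. WNT10B (up to 0.450 FPKM), WNT11 (0.325), WNT4 (0.290), WNT8B (0.261) and WNT16 (0.198) were detected in most libraries. WNT3A, WNT2B, WNT5B, WNT1 and WNT2 never passed 0.1 FPKM, and WNT8A and WNT9B were listed at 0 in every library. PORCN, which acylates all of these ligands, shares its row with the sterol enzyme gene EBP, which stood at 80.6 ± 3.38 FPKM in PR2, 97.8 ± 30.8 in PR1 and 78.1 ± 15.5 in parental cells (SD, n = 3 each) and passed in no comparison.

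Of the 13 receptor rows 11 were tested, and FZD2 moved most. FZD2, a receptor used by several ligands including WNT5A, was at 10.9, 24.2 and 24.4 FPKM in PR2, at 5.89, 5.85 and 4.31 in PR1, and at 3.71, 4.12 and 3.34 in parental cells. The 3 groups did not overlap, and PR2 A stood well below PR2 B and C. FZD2 rose in PR2 against parental cells by a log2 of 2.06 ± 0.27 and exceeded PR1 by 1.64 ± 0.27 (limma adjusted p = 0.00053 and 0.0027). In PR1 against parental cells the log2 difference was 0.42 (limma adjusted p = 0.34). Of the summed FPKM of all FZD rows, FZD2 held 17.9% to 31.1% in PR2, 6.65% to 10.4% in PR1 and 6.56% to 10.2% in parental cells.

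FZD8 fell in PR2. It was at 0.829, 0.833 and 0.841 FPKM in PR2, at 2.60, 2.60 and 4.34 in PR1, and at 2.23, 4.73 and 4.57 in parental cells. No PR2 library reached 1 FPKM, so the row entered the test through PR1 and parental cells alone. Its log2 fold change was −1.35 ± 0.24 in PR2 against parental cells and −1.16 ± 0.24 in PR2 against PR1 (limma adjusted p = 0.0026 and 0.0078), and PR1 and parental libraries overlapped. FZD5, a receptor of the gut and other epithelia, was higher in PR1 than in the other groups. FZD5 was at 5.84, 4.68 and 5.57 FPKM in PR2, at 8.75, 9.48 and 13.0 in PR1, and at 5.66, 5.07 and 6.40 in parental cells. Every PR1 library lay above every other library, with a log2 fold change of 0.75 ± 0.17 in PR1 against parental cells and −0.83 ± 0.17 in PR2 against PR1 (limma adjusted p = 0.015 and 0.0082). The first call was lost without parental B (limma adjusted p = 0.058) or PR1 C (0.055).

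The co-receptors LRP5 and LRP6 were lower in PR2 than in PR1, and neither passed against parental cells. LRP6 was at 3.13, 2.95 and 3.12 FPKM in PR2, at 4.54, 5.59 and 7.67 in PR1, and at 4.47, 3.01 and 3.67 in parental cells. LRP5 was at 50.3, 67.7 and 60.4 FPKM in PR2, at 73.6, 107 and 117 in PR1, and at 65.9, 93.2 and 100.3 in parental cells. Against PR1 the PR2 libraries did not overlap for either gene, although PR2 B came close to PR1 A for LRP5. The log2 difference was −0.75 ± 0.19 for LRP6 and −0.71 ± 0.22 for LRP5 (limma adjusted p = 0.019 and 0.0497). The LRP6 call was lost without PR1 C, PR2 B or PR2 C (limma adjusted p of 0.060 to 0.064), and the LRP5 call without PR1 B or C or any 1 PR2 library (0.073 to 0.16) and under 4 other settings (0.054 to 0.091). With the letter as a replicate block LRP5 also passed in PR2 against parental cells (log2 difference −0.52, limma adjusted p = 0.013 with the block and 0.12 without it), a comparison in which the letters were not taken as pairs.

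FZD6 and FZD7 rose in PR2 against parental cells by smaller amounts. FZD6, a receptor of planar cell polarity, was at 17.6, 13.3 and 15.9 FPKM in PR2, at 10.7, 10.2 and 13.8 in PR1, and at 11.5, 8.15 and 11.0 in parental cells (log2 fold change 0.57 ± 0.18 in PR2 against parental cells, limma adjusted p = 0.046). FZD7 was at 3.16, 4.60 and 4.19 FPKM in PR2, at 2.27, 3.03 and 2.92 in PR1, and at 1.86, 1.96 and 2.85 in parental cells (0.63 ± 0.17, limma adjusted p = 0.026). PR2 did not overlap with parental cells for either gene. The FZD6 call was lost without parental B or C, without any of the 3 PR2 libraries or without the A libraries (limma adjusted p of 0.052 to 0.16). The FZD7 call was lost without parental A or B or PR2 B or C (limma adjusted p of 0.070 to 0.099). With the letter as a replicate block both were also higher in PR2 than in PR1 (limma adjusted p = 0.046 for FZD6 and 0.045 for FZD7, against 0.15 and 0.13 without it).

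FZD4, which also serves the ligand norrin, stood at 10.7 ± 3.60 FPKM in PR2, 10.1 ± 1.61 in PR1 and 8.28 ± 1.77 in parental cells (SD, n = 3 each), and the row FZD4,OR7E2P at 14.3 ± 3.85, 12.2 ± 1.51 and 10.1 ± 3.93 in the same order. Reads of FZD4 may be split between these rows, and its exons overlap those of PRSS23 on the opposite strand, whose own row reached 504 FPKM. Neither row passed in any comparison, although both passed in PR2 against parental cells when the A libraries were left out (0.72, limma adjusted p = 0.022 for FZD4, and 0.92, limma adjusted p = 0.039 for FZD4,OR7E2P). FZD1 (3.76 ± 0.28 FPKM in PR2, 4.01 ± 0.51 in PR1 and 3.87 ± 1.16 in parental cells) and FZD3 (0.693 to 1.16 FPKM over all libraries) passed in none. FZD9 did not exceed 0.103 FPKM and was listed at 0 in the PR2 libraries and in PR1 A and B, and FZD10 was listed at 0 in every library.

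**Figure D3:**
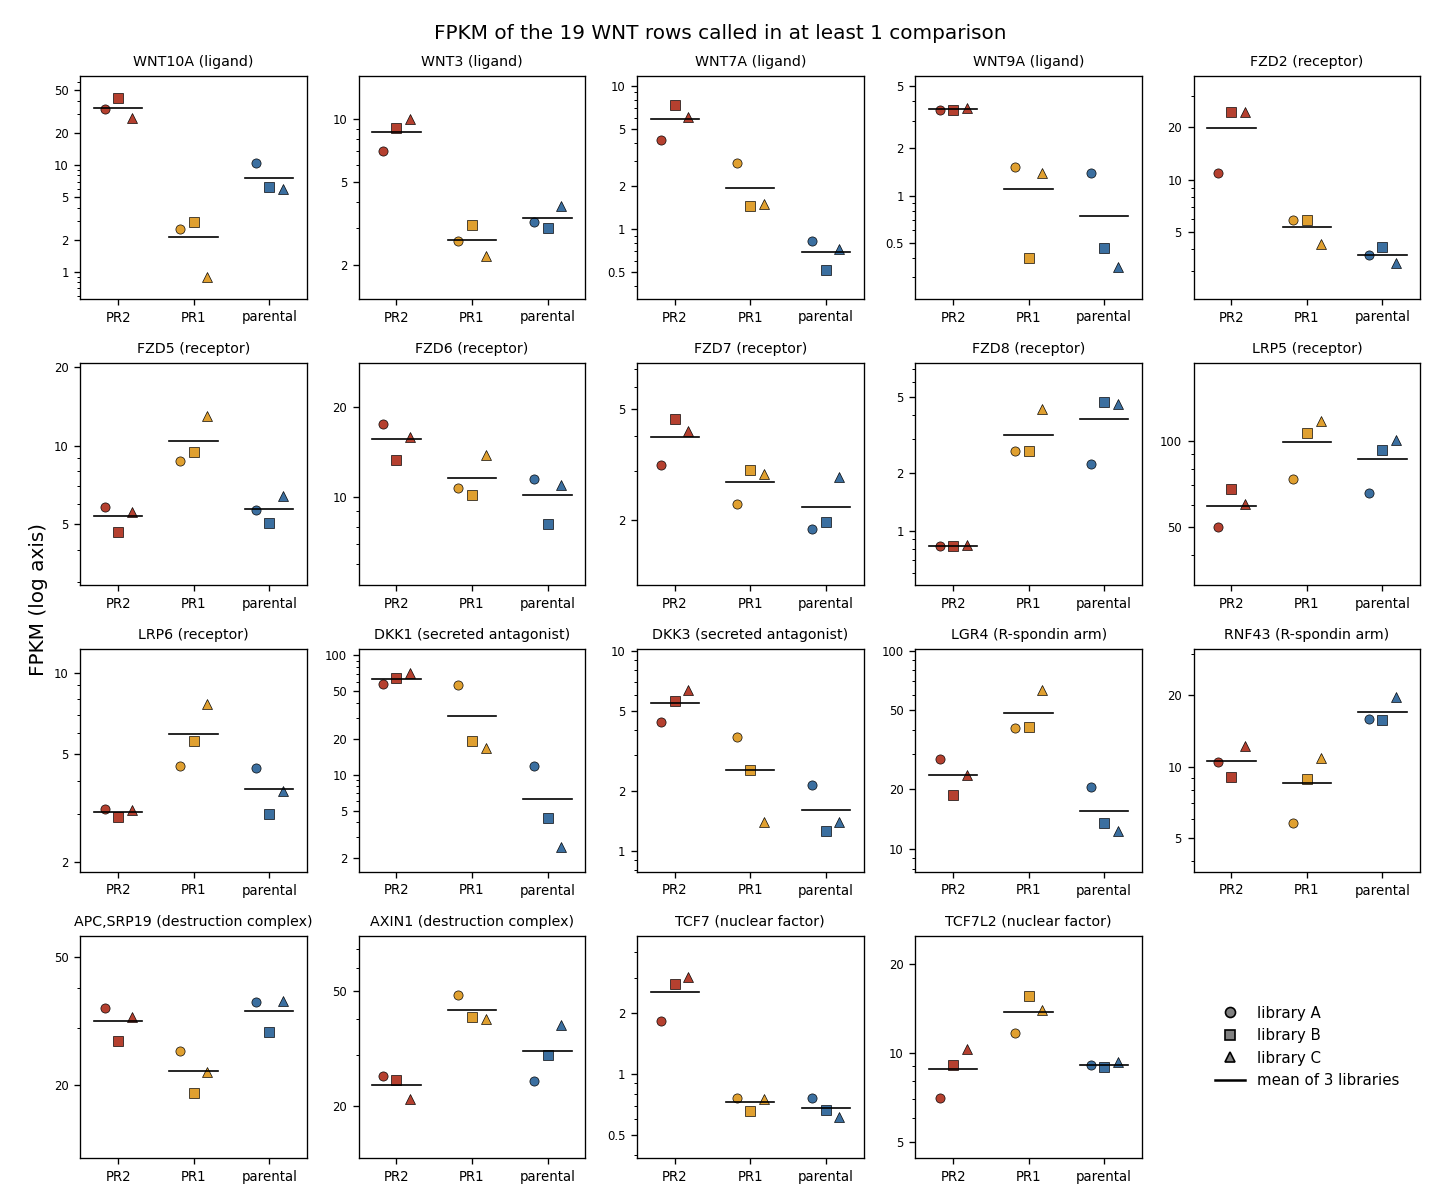
FPKM on a log axis of the 19 rows that passed in at least 1 comparison, in PR2, PR1 and parental libraries; circles, squares and triangles are the libraries A, B and C, and lines are means of 3. FZD8 is tightly grouped in PR2 (0.829 to 0.841 FPKM), and DKK1 in PR1 A (56.9 FPKM) lies with the PR2 libraries, above PR1 B and C (19.1 and 16.8 FPKM).

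The secreted antagonists were led by DKK1, which blocks LRP5 and LRP6 and which beta-catenin itself induces in many cells. DKK1 was at 57.3, 64.2 and 70.8 FPKM in PR2 A, B and C, at 56.9, 19.1 and 16.8 in PR1, and at 11.8, 4.39 and 2.47 in parental cells. The 3 groups did not overlap, although PR1 A came close to PR2 A. The A libraries of PR1 and parental cells were the highest of their groups, while PR2 A was the lowest of its group. DKK1 rose in PR2 by a log2 of 3.38 ± 0.51 and in PR1 by 2.14 ± 0.51 (limma adjusted p = 0.0011 and 0.018). The call in PR1 was lost without parental B or C (limma adjusted p = 0.066 and 0.069). Between PR2 and PR1 the log2 difference of 1.24 did not pass (limma adjusted p = 0.11), but it passed with the letter as a replicate block (limma adjusted p = 0.037). With the A libraries left out the difference was 1.86 and passed (limma adjusted p = 0.0019). The exons of DKK1 overlap those of the antisense gene PRKG1-AS1, whose own row did not exceed 1.14 FPKM.

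Among the single-gene rows that passed, 13 had a RefSeq window and 5 (DKK3, FZD2, FZD6, FZD7 and LRP6) did not. The 5′ region of DKK1 is shown as the only one of the 13 that held a searched motif. It lies at chr10:52314031-52314330 (GRCh38.p14, plus strand), with the same limits as above. Capitals mark the single CTTTGAA, which begins 95 bases before the transcript start. Of 35116 windows of the same length, 4.43% held CTTTGAA on either strand, 2.62% CTTTGAT and 7.71% TGANTCA.
DKK1: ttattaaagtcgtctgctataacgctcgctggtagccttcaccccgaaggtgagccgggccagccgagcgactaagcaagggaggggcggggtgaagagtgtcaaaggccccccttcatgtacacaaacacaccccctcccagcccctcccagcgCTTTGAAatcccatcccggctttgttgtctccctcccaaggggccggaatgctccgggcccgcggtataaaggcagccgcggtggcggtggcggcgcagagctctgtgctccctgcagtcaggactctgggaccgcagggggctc

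DKK3, a relative of DKK1 whose action on the pathway varies with the cell, also rose in PR2. It was at 4.40, 5.58 and 6.37 FPKM in PR2, at 3.70, 2.55 and 1.39 in PR1, and at 2.14, 1.26 and 1.40 in parental cells. PR2 lay above all other libraries, and PR1 C was as low as parental cells. The log2 fold change was 1.31 ± 0.24 in PR2 against parental cells and 0.90 ± 0.24 in PR2 against PR1 (limma adjusted p = 0.0038 and 0.027). The second call was lost without PR1 B or C or PR2 B or C (limma adjusted p of 0.063 to 0.10).

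The other 8 antagonist rows were below the filter. SFRP1, which binds WNT proteins, was at 0.108, 0.236 and 0.213 FPKM in PR2, at 0.106, 0.0412 and 0.0443 in PR1, and at 0.0320, 0.00639 and 0.0197 in parental cells. Every PR2 library exceeded every other library, PR1 A narrowly, and with no filter SFRP1 was higher in PR2 than in parental cells (log2 difference 0.22, limma adjusted p = 0.011) and PR1 (0.16, limma adjusted p = 0.048). SFRP2 reached 0.138 FPKM in parental B, and WIF1, SFRP5, DKK2, DKK4 and DKKL1 did not exceed 0.0503 FPKM. SFRP4 was listed at 0 in every library.

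Of the R-spondin receptors among the rows chosen by symbol, LGR4 was expressed and LGR5, the stem cell marker of the gut, was not above 0.0344 FPKM in any library. LGR4 was at 28.4, 18.8 and 23.5 FPKM in PR2, at 40.8, 41.4 and 63.6 in PR1, and at 20.7, 13.6 and 12.3 in parental cells. All PR1 libraries were above all others, and PR2 and parental libraries overlapped. LGR4 rose in PR1 by a log2 of 1.59 ± 0.25 (limma adjusted p = 0.0022), and it was lower in PR2 than in PR1 (log2 difference −1.0 ± 0.25, limma adjusted p = 0.018). The second call was lost without PR1 C, PR2 B or PR2 C (limma adjusted p of 0.054 to 0.070). In PR2 against parental cells the log2 difference was 0.59 (limma adjusted p = 0.11).

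RNF43, the ligase that removes FZD receptors, fell in PR1. It was at 10.4, 9.06 and 12.2 FPKM in PR2, at 5.76, 8.89 and 10.9 in PR1, and at 15.9, 15.7 and 19.6 in parental cells. Every parental library lay above every derivative library. RNF43 fell by 0.96 on the log2 scale in PR1 (limma adjusted p = 0.014), a call lost without parental C (0.055), while the log2 difference of −0.64 in PR2 did not pass (limma adjusted p = 0.053). In PR2 it passed when the A libraries were left out (−0.69, limma adjusted p = 0.045) and after quantile normalization or in a fit of only the 2 groups. Exons of RNF43 overlap those of SUPT4H1, a separate row of up to 70.6 FPKM. ZNRF3, its relative, was at 2.59 ± 0.77 FPKM in PR2, 2.87 ± 0.52 in PR1 and 2.22 ± 0.43 in parental cells (SD, n = 3 each) and passed in none.

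In the destruction complex, AXIN1 differed between the derivatives. AXIN1, the scaffold of the complex, was at 25.4, 24.6 and 21.2 FPKM in PR2, at 48.5, 40.8 and 40.1 in PR1, and at 24.5, 30.1 and 38.3 in parental cells. PR2 and PR1 did not overlap, and parental cells lay between them, with parental A among the PR2 values. The log2 difference was −0.84 ± 0.18 in PR2 against PR1 (limma adjusted p = 0.0098), and −0.35 in PR2 and 0.48 in PR1 against parental cells, neither of which passed (limma adjusted p = 0.19 and 0.0996). The row APC,SRP19 was at 34.7, 27.4 and 32.7 FPKM in PR2, at 25.4, 18.8 and 22.0 in PR1, and at 36.3, 29.2 and 36.6 in parental cells. It fell in PR1 against parental cells (−0.60 ± 0.17, limma adjusted p = 0.036), a call lost without parental A or C or PR1 B or C (limma adjusted p of 0.082 to 0.12), and the share of APC in that row is unknown. With the letter as a replicate block the row was also higher in PR2 than in PR1 (log2 difference 0.50, limma adjusted p = 0.0099 with the block and 0.060 without it). GSK3B stood at 9.34 ± 1.36 FPKM in PR2, 8.49 ± 1.73 in PR1 and 9.92 ± 2.91 in parental cells and passed in none.

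AXIN2, the relative of AXIN1 that is the usual readout of beta-catenin activity, was low throughout and lowest in the derivatives. It was at 0.00692, 0.0330 and 0.0536 FPKM in PR2, at 0.0654, 0.0419 and 0.0206 in PR1, and at 0.390, 0.633 and 0.158 in parental cells. Every parental library exceeded every derivative library. The row was below the filter. With no filter on low values the log2 difference was −0.42 in PR2 and −0.40 in PR1 against parental cells (limma adjusted p = 0.027 and 0.042).

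Of the 4 nuclear factors, TCF7 and TCF7L2 were tested. TCF7, a T-cell factor that can activate or, in its short form, repress WNT targets, was at 1.83, 2.80 and 3.03 FPKM in PR2, at 0.761, 0.658 and 0.755 in PR1, and at 0.761, 0.667 and 0.614 in parental cells. Only PR2 libraries reached 1 FPKM, so the row entered the test through PR2. TCF7 rose by a log2 of 1.06 ± 0.15 in PR2 against parental cells and 1.03 ± 0.15 in PR2 against PR1 (limma adjusted p = 0.00079 and 0.0013). TCF7L2, the main factor of this family in epithelia, was at 7.03, 9.06 and 10.3 FPKM in PR2, at 11.7, 15.6 and 13.9 in PR1, and at 9.10, 8.95 and 9.31 in parental cells. All PR1 libraries exceeded all others. TCF7L2 was lower in PR2 than in PR1 (log2 difference −0.60 ± 0.17, limma adjusted p = 0.030), a call lost without PR1 B or C or PR2 A or B (limma adjusted p of 0.075 to 0.11). In PR1 against parental cells its log2 difference of 0.53 missed the threshold (limma adjusted p = 0.055) and passed with the letter as a replicate block (0.020).

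LEF1 and TCF7L1 were below the filter. LEF1, a factor that WNT signalling often induces, was at 0.0427, 0.0550 and 0.0788 FPKM in PR2, at 0.523, 0.722 and 0.837 in PR1, and at 1.07, 1.19 and 0.904 in parental cells. The 3 groups did not overlap. With no filter the log2 difference was −0.95 in PR2 against parental cells and −0.67 in PR2 against PR1 (limma adjusted p = 0.00022 and 0.0016), and −0.28 in PR1 against parental cells (limma adjusted p = 0.052). TCF7L1, mostly a repressor, was at 0.311, 0.763 and 0.448 FPKM in PR2, at 0.133, 0.0895 and 0.0342 in PR1, and at 0.823, 0.964 and 0.257 in parental cells, with PR1 below every other library. In PR2, therefore, LEF1 had its lowest values and TCF7 its highest. TCF7L1 passed in no comparison with no filter.

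NKD2, an antagonist of Dishevelled, the protein that relays the signal from FZD receptors, was at 0.437, 0.992 and 0.807 FPKM in PR2, at 0.0698, 0.0617 and 0.0751 in PR1, and at 0.350, 1.28 and 1.18 in parental cells. PR1 lay below both other groups, which overlapped. With no filter its log2 difference was −0.82 in PR1 against parental cells and 0.69 in PR2 against PR1 (limma adjusted p = 0.035 and 0.058). Its relative NKD1 did not exceed 0.0348 FPKM.

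**Figure D4:**
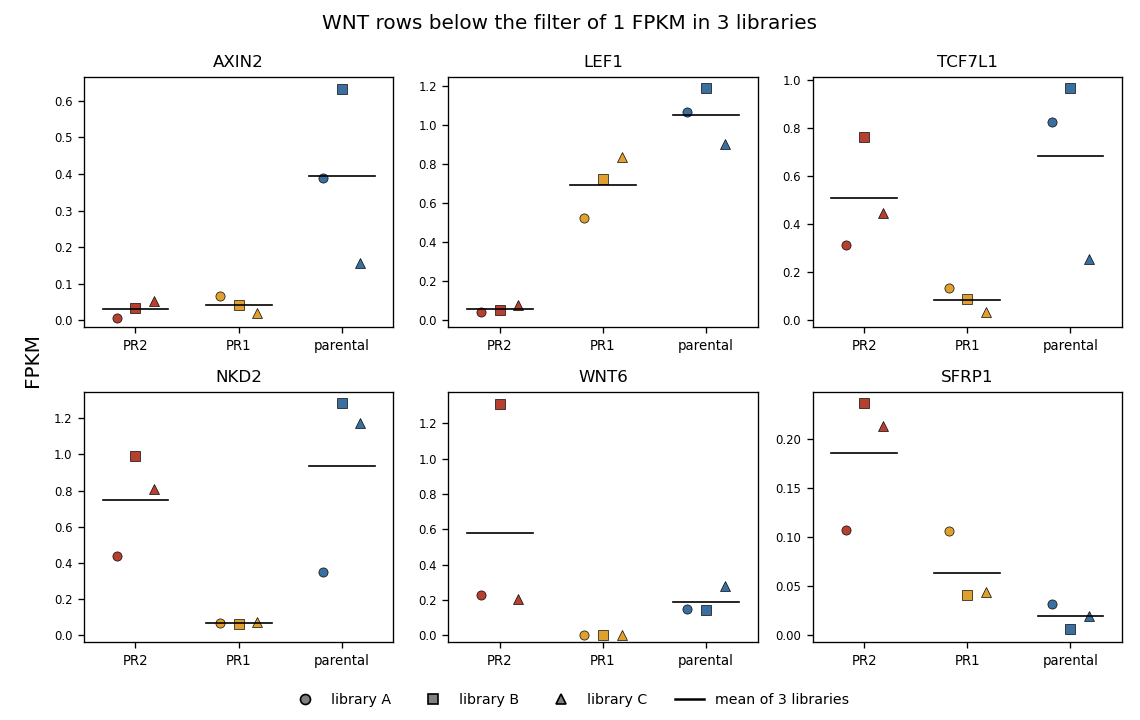
FPKM on a linear axis of 6 rows that did not reach 1 FPKM in 3 libraries (AXIN2, LEF1, TCF7L1, NKD2, WNT6 and SFRP1), in PR2, PR1 and parental libraries; symbols are the libraries A, B and C, and lines are means of 3 where no library is listed at 0. AXIN2 is at 0.00692 to 0.0654 FPKM in the derivatives and at 0.158 to 0.633 in parental cells, LEF1 is at 0.0427 to 0.0788 in PR2, and NKD2 at 0.0617 to 0.0751 in PR1.

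Other genes of the pathway were examined as a list of 49 partners with a row of their own, of which 33 were tested. In PR2 against parental cells 4 rose and 5 fell (12.1% and 15.2% of the 33, beside 13.6% and 9.83% of all tested rows). In PR1 against parental cells 1 rose and 4 fell (3.03% and 12.1%, beside 7.56% and 7.98%), and in PR2 against PR1 2 were higher and 2 lower (6.06% each, beside 11.0% and 8.92%). With the letter as a replicate block 6 rose and 5 fell in PR2 against parental cells, and 3 rose and 7 fell in PR1 against parental cells. In PR2 against PR1 5 were higher and 2 lower with the block. The block also raised the counts over all tested rows, as given below, so the shares above do not apply to these counts. The median log2 fold change of the 33 partners was −0.041, 0.081 and −0.013 in these comparisons, in that order. CTNNB1, which encodes beta-catenin, was at 47.0, 53.6 and 69.4 FPKM in PR2, at 77.2, 92.2 and 120 in PR1, and at 151, 115 and 144 in parental cells. PR2 lay below both other groups, and PR1 B and C bracketed the lowest parental library. CTNNB1 fell in PR2 against parental cells (log2 fold change −1.26 ± 0.21, limma adjusted p = 0.0020) and was lower in PR2 than in PR1 (−0.75 ± 0.21, limma adjusted p = 0.031), the second call being lost without PR1 B or C or PR2 A or B (limma adjusted p of 0.071 to 0.11) and under quantile normalization (0.070). In PR1 against parental cells the log2 difference of −0.51 did not pass (limma adjusted p = 0.13), but passed narrowly with the letter as a replicate block (0.0498).

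The non-canonical receptors PTK7 and ROR1 were among the partners that rose. PTK7 was at 33.7, 48.3 and 42.0 FPKM in PR2, at 13.0, 18.3 and 18.5 in PR1, and at 15.5, 17.3 and 11.0 in parental cells (log2 fold change 1.45 ± 0.21 in PR2 against parental cells and 1.27 ± 0.21 in PR2 against PR1, limma adjusted p = 0.0010 and 0.0029). ROR1, a receptor of WNT5A, was at 4.54, 2.52 and 4.0 FPKM in PR2, at 2.76, 2.26 and 3.59 in PR1, and at 1.37, 0.509 and 0.993 in parental cells. It rose by 1.26 in PR2 and 0.99 in PR1 (limma adjusted p = 0.0030 and 0.015), the call in PR1 being lost without parental B or PR1 C (0.060 and 0.064). VANGL2, a core gene of planar cell polarity, fell in PR1 to 0.187, 0.161 and 0.0567 FPKM, against 1.58, 1.99 and 0.993 in parental cells (log2 fold change −1.13 ± 0.21, limma adjusted p = 0.0057), and was higher in PR2 (0.718, 1.87 and 0.948 FPKM) than in PR1 by 0.91 (limma adjusted p = 0.014, and 0.053 without PR1 C). TLE3, a co-repressor of TCF proteins, fell in PR2 by 0.79 on the log2 scale, and CSNK1D, a casein kinase, fell in PR1 by 0.88 (limma adjusted p = 0.0084 and 0.0077). No PR1 library reached 1 FPKM for VANGL2. Exons of CSNK1D overlap those of SLC16A3 on the opposite strand, a row of up to 275 FPKM. CELSR2, a cadherin of planar cell polarity, fell in PR2 against parental cells (−0.79, lost without parental B, limma adjusted p = 0.0503). No PR2 library reached 1 FPKM for CELSR2, so the row entered the test through PR1 and parental cells alone. DAAM1, a formin of that branch, rose in PR2 against parental cells (0.68, lost without parental B or C or PR2 B or C, 0.098 to 0.16, and under 3 other settings, 0.065 to 0.072). TNKS, which marks AXIN for degradation, also rose there (0.54, lost without parental A or B or any 1 PR2 library, 0.068 to 0.16, and under 4 other settings, 0.054 to 0.072). TLE4, a co-repressor, was lower in PR2 than in PR1 (−0.73, lost without PR1 B or C or any 1 PR2 library, limma adjusted p of 0.072 to 0.12, and under 2 other settings, 0.061 and 0.074). Under the replicate block TLE4 was also higher in PR1 than in parental cells (0.69, limma adjusted p = 0.012), and CSNK1D (0.53, 0.016) and TNKS (0.46, 0.039) were higher in PR2 than in PR1. APC2 was then higher in PR2 than in parental cells (0.99, 0.0082) and PR1 (0.66, 0.045). KREMEN2 was then higher than in parental cells in PR2 (0.56, 0.043) and PR1 (0.65, 0.034), and no parental library reached 1 FPKM for it. TLE2 (−0.72, 0.011) and BCL9 (−0.50, 0.042) were then lower in PR1 than in parental cells. DVL3, a Dishevelled gene, fell by 0.41 in PR2 and 0.55 in PR1, calls lost without any 1 of the 6 libraries in PR2 (0.051 to 0.14) and without parental C or PR1 C in PR1 (0.060 and 0.064). Without the A libraries neither DVL3 call held (0.13 in PR2 and 0.068 in PR1), and neither did in a fit of only the 2 groups (0.074 and 0.057). GSK3A, the relative of GSK3B, fell by 0.51 in each derivative, calls lost without parental C or PR2 B or C in PR2 (0.074 to 0.096) and without parental A or C or PR1 B or C in PR1 (0.053 to 0.0997) or in a fit of only those 2 groups (0.073).

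The R-spondin genes RSPO1 to RSPO4, whose products engage LGR4, did not exceed 0.0497 FPKM, and RSPO1 and the receptor gene ROR2 were listed at 0 in every library. LGR6, a further R-spondin receptor gene on the partner list, was below the filter. It was at 0.465, 1.27 and 0.747 FPKM in PR2, at 0.338, 0.506 and 0.242 in PR1, and at 0.206, 0.366 and 0.161 in parental cells. NOTUM, a secreted enzyme that inactivates WNT proteins, did not exceed 0.662 FPKM.

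Textbook targets of beta-catenin and TCF outside the 57 rows formed a list of 15, of which 13 were tested. Several are also targets of other pathways. In PR2 against parental cells 5 rose and 1 fell (38.5% and 7.69% of the 13, beside 13.6% and 9.83% of all tested rows). In PR1 against parental cells 2 rose and 0 fell (15.4% and 0%, beside 7.56% and 7.98%), and in PR2 against PR1 2 were higher and 1 lower (15.4% and 7.69%, beside 11.0% and 8.92%). The counts with the letter as a replicate block were 7 and 1, 3 and 0, and 2 and 2, in that order. The block also raised the counts over all tested rows, as given below, so the shares above do not apply to these counts. Among the targets the gains were EPHB2 (0.84, limma adjusted p = 0.0485) and JUN (0.75, 0.012) in PR2 against parental cells, FOSL1 (1.57, 0.0014) in PR1 against parental cells and EPHB3 (−0.47, 0.044) in PR2 against PR1. Without the block the 3 comparisons had medians of 0.52, −0.048 and 0.32 beside the medians over all rows given above. SOX9, a transcription factor of lung progenitors, was at 24.3, 24.5 and 29.1 FPKM in PR2, at 8.58, 9.43 and 6.16 in PR1, and at 13.9, 9.83 and 5.90 in parental cells. PR2 lay above all other libraries, and SOX9 rose by 1.37 ± 0.26 against parental cells and 1.59 ± 0.26 against PR1 (log2, limma adjusted p = 0.0042 and 0.0026). PPARD, a nuclear receptor, rose by 1.09 and 1.14 in the same comparisons (limma adjusted p = 0.0027 and 0.0029). SP5, a transcription factor induced by beta-catenin in many cells, was at 1.27, 1.20 and 1.45 FPKM in PR2, at 2.37, 2.41 and 1.73 in PR1, and at 0.769, 0.622 and 0.452 in parental cells, so it passed the filter through the derivatives alone. It rose by 0.97 ± 0.14 in PR1 and 0.52 ± 0.14 in PR2 against parental cells (limma adjusted p = 0.0017 and 0.025), the call in PR2 being lost without parental B or C or PR2 B or C (limma adjusted p of 0.056 to 0.098). SP5 was lower in PR2 than in PR1 (−0.45, limma adjusted p = 0.048), a call that did not hold without PR1 A or B or any 1 PR2 library (0.090 to 0.15), without the A libraries (0.14) or under 2 other settings (0.056 and 0.080). CD44, an adhesion receptor gene, rose by 0.98 in PR2 and 0.79 in PR1 (limma adjusted p = 0.015 and 0.049). Its call in PR2 was lost without parental B or C (0.057 each), and that in PR1 without parental B or C or any 1 PR1 library (0.054 to 0.16) and under 3 other settings (0.056 to 0.072). FOSL1, an AP-1 gene, rose in PR2 by 1.88 (limma adjusted p = 0.027, lost without parental B or C or PR2 A or C, 0.060 to 0.11, and with no filter, 0.060). EPHB3, an ephrin receptor gene, fell by 0.77 in PR2 (limma adjusted p = 0.016, lost without PR2 B, 0.062, and without the A libraries, 0.093). The other 7 tested targets passed in no comparison without the block. Of the untested targets, ASCL2 was listed at 0 in every derivative library, with 0.388, 1.02 and 0.745 FPKM in parental cells. TNFRSF19, the other untested target, went the other way. It was at 1.02, 0.849 and 0.555 FPKM in PR2, at 0.474, 0.800 and 0.431 in PR1, and at 0.206, 0.0535 and 0.0557 in parental cells.

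**Figure D5:**
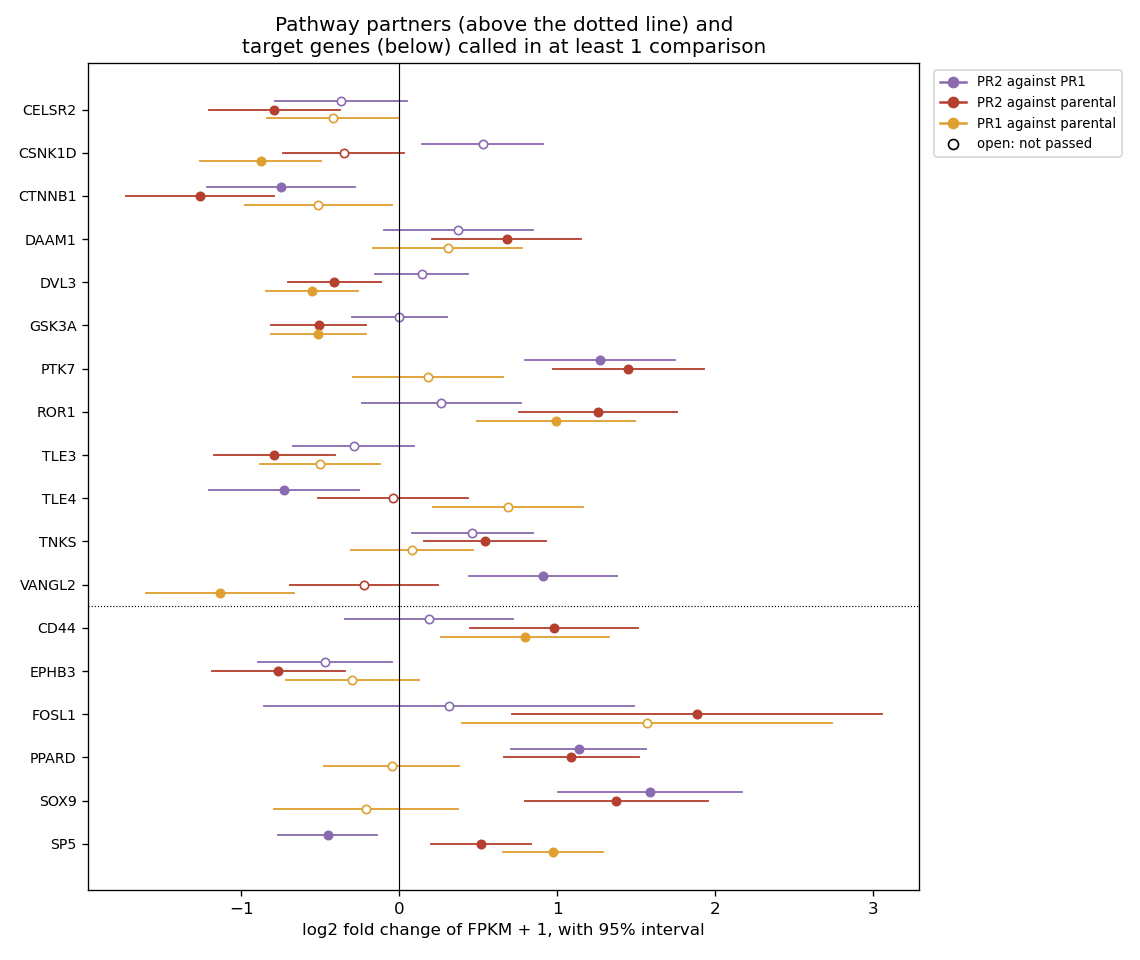
Log2 fold changes of FPKM + 1 with 95% intervals for the 12 pathway partners and 6 target genes that passed in at least 1 comparison; filled points passed, open points did not, and colours mark the comparison. CTNNB1 lies at −1.26 and PTK7 at 1.45 in PR2 against parental cells, and SOX9 at 1.37.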

How the data were processed

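RNA libraries of PR2, PR1 and parental LC-2/ad cells (3 each) were made with a TruSeq RNA kit, per the labels' protocols. Per the submitters' processing notes, GRCh37 (hg19) was the build, and the tools were Cuffdiff 2.2.1, Cufflinks 2.2.1 and TopHat2 2.0.14. Strand use, annotation and read numbers are not given there. The values the authors deposited, 1 column per library, are taken as FPKM, which the header does not state. From them log2(FPKM + 1) was computed where at least 3 libraries reached 1 FPKM, and fitted with limma 3.58.1 in R 4.3.3, with 1 mean per group over all 9 libraries and an intensity trend. Tests were two-sided, with Benjamini-Hochberg adjustment over the 12011 rows. The fit was checked on simulated libraries with independent noise and no effect of the letter, so that check does not bear on pairing. Errors are SDs for FPKM and standard errors for log2 fold changes.

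The genes, lists and tests were chosen with earlier results of these data known. Rows that passed in at least 1 comparison are given by library. Of the partner and target lists, up to 6 passing genes per comparison with the largest change were to be named. NOTUM, ROR2, LGR6, APC2, KREMEN2, TLE2, BCL9, ASCL2, TNFRSF19, EPHB2, JUN, TNKS, GSK3A, DVL3 (in PR2) and the R-spondin genes were added after their values were seen. Pairing by letter was judged from how deviations from the group means correlated across tested rows. Libraries of 1 letter correlated in PR1 and parental cells (0.31 for A, 0.48 for B and 0.16 for C) and in PR2 and PR1 (0.53, 0.54 and 0.25), so the letters may pair those libraries. In PR2 and parental cells (0.30, 0.42 and 0.014) they were not taken as pairs. Libraries of unlike letters ran from −0.43 to 0.068, −0.56 to 0.24 and −0.35 to 0.059, in the same order of groups. Letters that paired PR1 with both other groups would also pair PR2 with parental cells. Whether the letters are pairs is thus not settled. Calls gained under the block in PR2 against parental cells (LRP5, RNF43, APC2, KREMEN2, EPHB2 and JUN) rest on this open point. The main fit left the letters out in every comparison, and the replicate block was run beside it. Alternatives were a pseudocount of 0.1, no filter, a filter at 5 FPKM, quantile normalization, fits of 2 groups, the letter as a replicate block, omission of the A libraries and of each library. Overlapping exons were read from GENCODE 29 and promoter windows from RefSeq, both on GRCh38, and no coordinates were joined to the expression table.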

Additional observations from a re-analysis of the deposited data

Results flagged for a closer look

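The effects of PR2 and PR1 against parental cells differed, by the limma test of PR2 against PR1 without the replicate block, for 14 rows. PR2 was higher for WNT10A (log2 difference 3.56), FZD2 (1.64), WNT3 (1.42), WNT7A (1.23), WNT9A (1.16), TCF7 (1.03) and DKK3 (0.90). PR2 was lower for FZD8 (−1.16), LGR4 (−1.0), AXIN1 (−0.84), FZD5 (−0.83), LRP6 (−0.75), LRP5 (−0.71) and TCF7L2 (−0.60). Of these 14 rows, WNT10A alone passed against parental cells in opposite directions in the 2 derivatives. Of the 28 tested WNT rows 25.0% were higher and 25.0% lower in PR2 than in PR1, beside 11.0% and 8.92% of all tested rows. TCF7 and FZD8 passed the filter only through groups in which they were high. Some alternatives ended the calls of LRP5 (9 of 13), TCF7L2 (5 of 13), DKK3 (5 of 12), LGR4 (3 of 13) and LRP6 (3 of 12). Groups of 3 libraries are too small for a search for single outlying libraries.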

How the results depend on the processing

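The counts of WNT rows that passed were 11 (PR2 against parental), 7 (PR1 against parental) and 14 (PR2 against PR1), the order kept below. With the filter at 5 FPKM, 17 rather than 28 WNT rows were tested, and 5, 6 and 7 passed. LRP5 was still tested there and did not pass in PR2 against PR1 (limma adjusted p = 0.056). Leaving out single libraries gave 9 to 12, 4 to 8 and 9 to 16. With the letter as a replicate block 13, 8 and 18 passed, and all calls made without it were kept. Among WNT rows the block changed no call beyond those given above and RNF43, which passed in PR2 against parental cells (limma adjusted p = 0.014). Without the A libraries 15, 10 and 15 passed. The counts over all rows in that setting are not given here, so whether this rise is particular to the WNT rows cannot be said. Beyond those given above, LRP6 (limma adjusted p = 0.026) and TCF7L2 (0.031) then passed in PR1 against parental cells, and AXIN1 (0.049) and LRP5 (0.023) in PR2 against parental cells. Other settings also ended single calls: with no filter WNT7A in PR1 against parental cells (limma adjusted p = 0.074), FZD6 in PR2 against parental cells (0.057) and DKK3 in PR2 against PR1 (0.061), and in fits of 2 groups APC,SRP19 (0.063), FZD6 (0.062) and TCF7L2 (0.057). Of 403 recomputed fold changes of passing rows, 349 kept direction and threshold, 54 kept direction only and 0 reversed. Over all rows 2814, 1866 and 2395 passed, against 4113, 3088 and 3789 with the block, 1811, 1207 and 1573 at 5 FPKM, and as few as 1805, 1141 and 1420 without 1 library (PR2 C, PR1 C and PR2 C). The partner list without the A libraries had 5 rises and 4 falls, 3 and 3, and 3 and 2 in the 3 comparisons, and the target list 6 and 0, 3 and 1, and 4 and 0. These counts too have no share of all rows beside them. Where a setting changed a call, the cause was not tested. FPKM gives no absolute depth, so rows under 1 FPKM rest on few fragments of unknown number.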

Other observations

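In the order of protein-coding genes in RefSeq (GRCh38.p14), WNT6 and WNT10A are neighbours, as are WNT3 and WNT9B, and WNT10B and WNT1. WNT10A was at 27.5 to 42.6 FPKM in PR2, 0.895 to 2.92 in PR1 and 5.93 to 10.6 in parental cells, while WNT6 was at 0.205 to 1.31 in PR2, listed at 0 in PR1 and at 0.141 to 0.277 in parental cells. WNT9B was listed at 0 in all 9 libraries beside WNT3 at 2.19 to 10.1 FPKM.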
